A study of Homo sapiens with 4 samples.

Results

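The genes described are 44 genes of DNA replication and nucleotide synthesis, chosen by name and grouped by role. They and the comparison list of 58 other replication and nucleotide genes were chosen with earlier results of these data known. Contrasts of the 44 with that list or with all genes are therefore not independent of the choice. All 44 reached at least 1 CPM (counts scaled to the library total) in 1 or more libraries, among 15989 of 57891 annotated genes that did so. Poly(A) RNA was sequenced from AC16 cells, a human line derived by fusion of ventricular cells with a virally transformed fibroblast line, at 0 (untreated), 10, 30 and 360 min in 10 nM doxorubicin, an anthracycline that poisons topoisomerase II. There was 1 library per time, so each difference compares libraries and has no replicate check, no test and no p-value. For treated cells, medium with serum was replaced after a rinse by serum-free medium with the drug. Whether the untreated cells also had this change is not stated, so the drug, the rinse and the loss of serum cannot be told apart. With 1 library per time, none of these can be told apart from differences between cultures or library preparations either. All 3 comparisons share the 0 min library.

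To copy its DNA, a cell first licenses origins: the origin recognition complex, CDC6 and CDT1 load the ring-shaped MCM helicase. CDC45, the GINS complex and MCM10 then turn this ring into a moving helicase, primase and polymerase alpha start each strand, and polymerases epsilon and delta extend the strands on the PCNA clamp. Ribonucleotide reductase, thymidylate synthase and thymidine kinase supply deoxynucleotides. Many of these genes are transcribed towards S phase under E2F factors, and cells that leave the cycle shut them down.

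The 4 libraries held 55156612 to 56875881 counts, or 13789153 to 14218970 read pairs at an assumed 4 counts each. Annotated transcripts took 88.2 to 89.2% of counts, models that the authors' assembly added took 10.7 to 11.7%, and mitochondrial genes took 3.83 to 4.20%. The 10 min library stood apart, with 26417 genes that had a count, against 25037 to 25111 in the other libraries. Of the cardiomyocyte markers 8 of 16 reached 1 CPM, with summed levels of 119, 143, 217 and 153 CPM at 0, 10, 30 and 360 min. Of the rest, ACTC1 and PLN were at 0 and TNNT2, TNNI3, MYH6, MYH7, ACTN2 and NPPA stayed under 1 CPM. Among those present, NPPB had 37.1 CPM, MYL2 27.7 CPM, NKX2-5 19.0 CPM and TTN 16.0 CPM at 0 min. RYR2 had 9.41 CPM, TBX5 5.57 CPM, GATA4 2.18 CPM and MYL7 1.60 CPM. Genes of the contractile machinery thus went both ways, with MYL2 and TTN present and TNNT2 and MYH6 under 1 CPM. The labelled cell type is borne out by some of its markers and not by others. Of the fibroblast and matrix markers 5 of 10 reached 1 CPM, with DCN and LUM at 0, and their summed level was 10520, 13780, 8981 and 8897 CPM. Endothelial markers (1 of 4 at 1 CPM, KDR at 0) summed to 5.47, 11.1, 4.36 and 5.84 CPM, with VWF 2.06-fold higher at 10 min than at 0 min, and immune markers (2 of 3 at 1 CPM) to 30.2, 57.7, 33.0 and 29.8 CPM, nearly all CD68. Epithelial markers (0 of 2 at 1 CPM) summed to 0.651 to 1.08 CPM. Whether these marker differences have a part in the results was not tested. In bulk RNA, fewer cells of a type and less RNA per cell cannot be told apart.

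At 10 min 33 of the 44 genes fell, some in every role group, and none rose, while the 30 and 360 min libraries lay near the 0 min library for most of them. A gene was counted as fallen or risen where its CPM differed at least 2-fold, either library reached 5 CPM and the 95% interval of the ratio left out 1. Intervals cover counting error only. By this rule 6.85% of 11892 genes compared fell at 10 min and 7.69% rose. The summed level of the 44 genes was 3521, 1467, 3566 and 3939 CPM at 0, 10, 30 and 360 min. The median log2 ratio at 10 min was -1.31, or 2.48-fold lower, against -0.04 over all genes compared. All 44 genes were below their 0 min level at 10 min, with log2 ratios between -2.20 and -0.08. In 43 of them the 10 min library was the lowest of the 4, the exception being MCM5.

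At 30 min 1 of the 44 genes rose (UHRF1) and 0 fell, against 3.55% and 3.25% of 11533 genes compared. At 360 min 2 rose (GINS4 and UHRF1) and 0 fell, against 3.26% and 3.34% of 11511 genes compared. These shares of members are near the background. The median log2 ratio was 0.01 at 30 min, with 39 genes within 1.25-fold of the 0 min level, and 0.10 at 360 min, with 33 within 1.25-fold. At 360 min 35 of the 44 lay above the 0 min level and 9 below it.

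**Figure D1:**
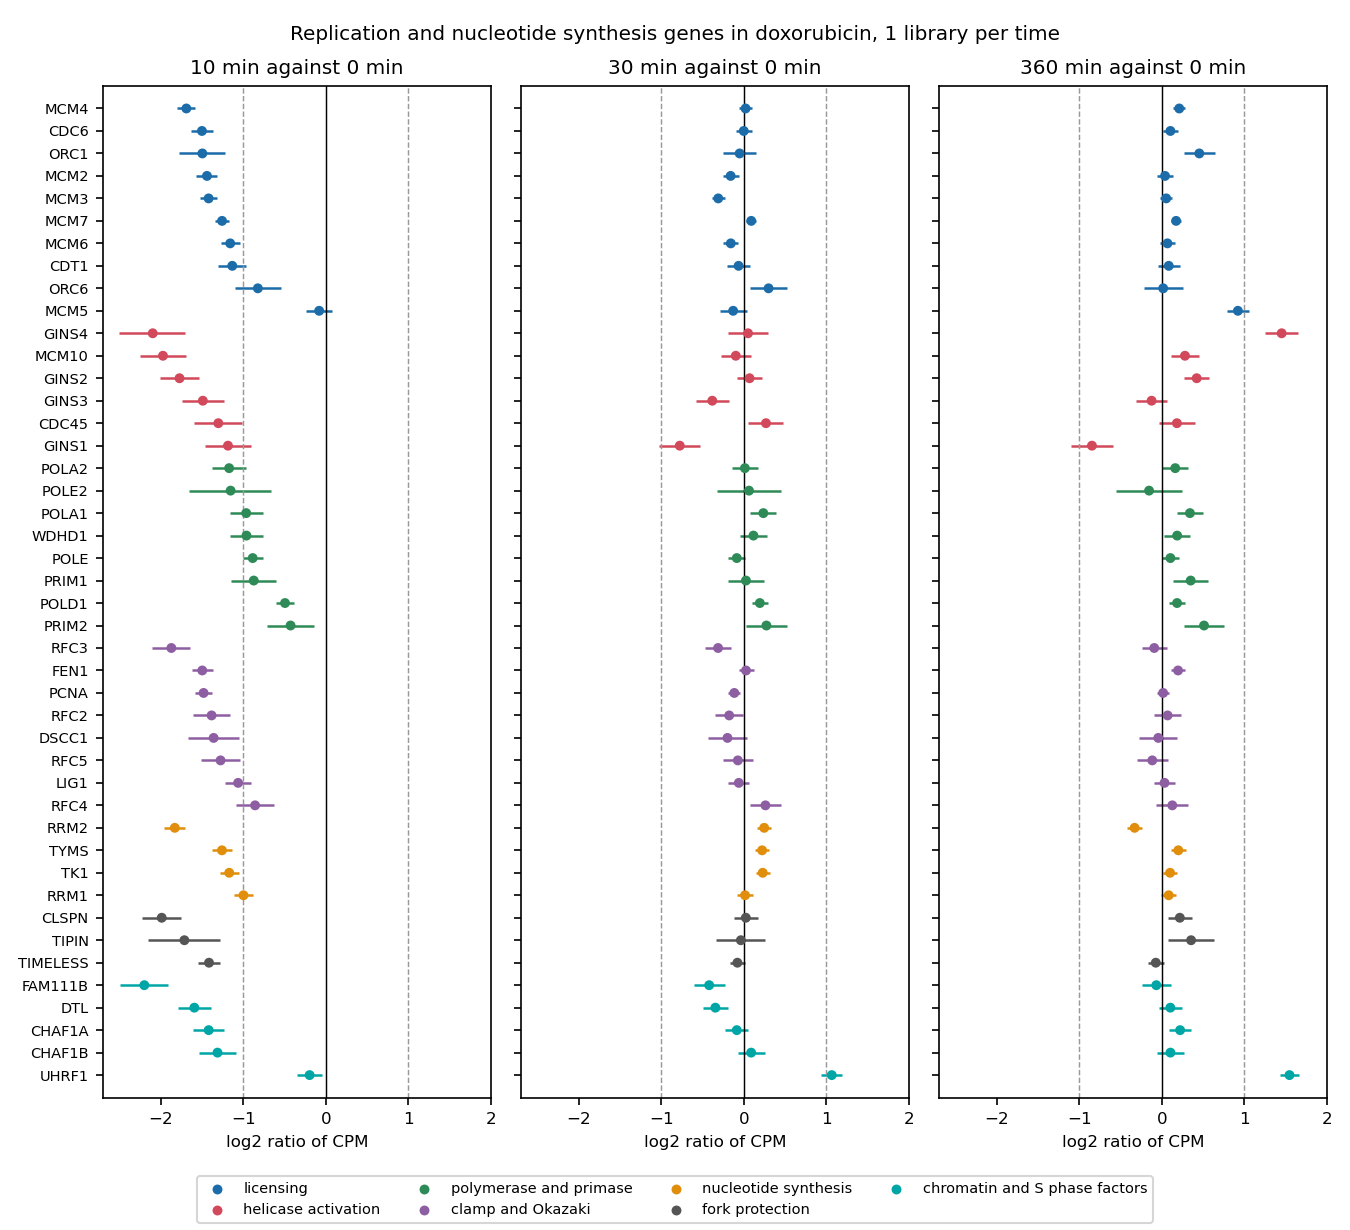
Log2 ratio of CPM to the 0 min library for each of the 44 genes, by role group, at 10, 30 and 360 min, with 95% counting intervals. The 10 min points lie between -2.20 and -0.08, and most points at 30 and 360 min lie close to 0.

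**Figure D2:**
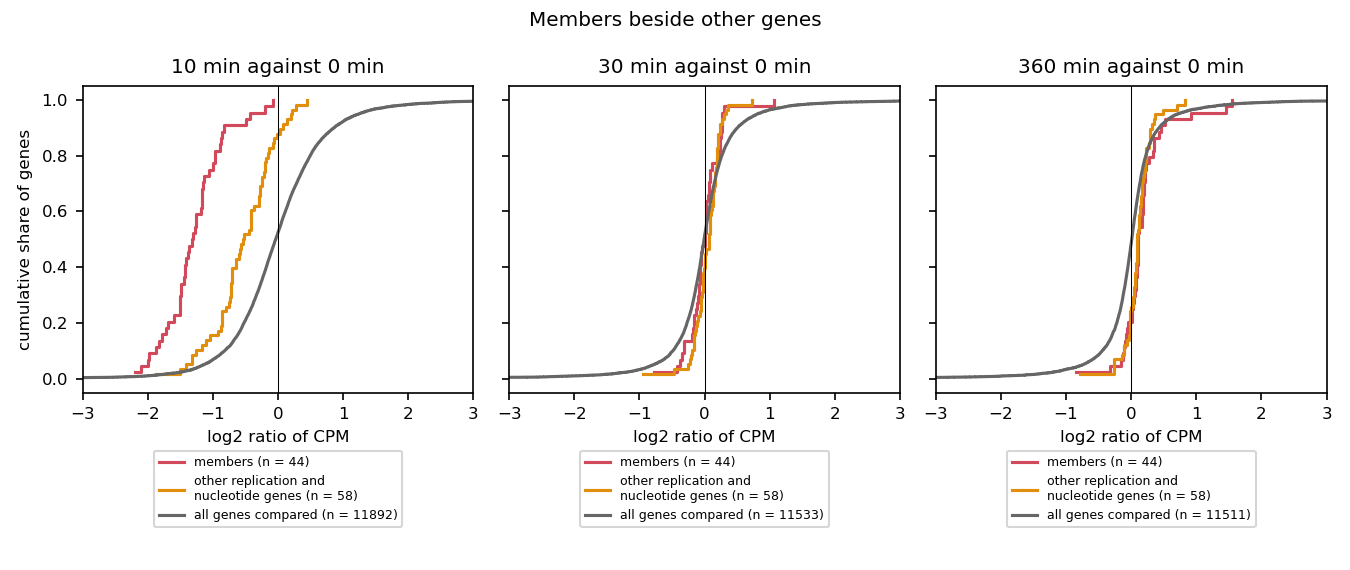
Cumulative share of genes against the log2 ratio of CPM, for the 44 genes, 58 other replication and nucleotide genes and all genes compared. At 10 min the medians are -1.31 for the 44 genes, -0.53 for the other 58 and -0.04 for all genes compared.

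Promoter sequence was not used to choose the genes and is shown because so many of them were low in the same library. RefSeq promoters (GRCh38.p14, 250 bases before to 50 after each gene start) were in hand for 39 of the 44 (all but MCM4, MCM5, GINS4, DSCC1 and FAM111B). The letters TTTCCCGC or TTTGGCGC, the type of site E2F factors bind, occurred on either strand in 19 of 39 members (48.7%), against 2.75% of 27305 gene symbols with a promoter. The letters CCAAT, bound by NF-Y, occurred in 24 of 39 (61.5%), against 39.7% of symbols. Those of the cell cycle homology region, TTTGAA or TTCGAA, occurred in 2 of 39 (5.13%; MCM6 and RRM1), against 19.5%. Where an E2F-type match was present the median log2 ratio at 10 min was -1.26 and 16 of 19 genes fell; without it the median was -1.29 and 13 of 20 fell. The medians were thus close with and without those letters. A match describes letters and is no evidence of binding. The background was every symbol with a promoter, with no matching for base composition or type of gene. Many of the genes were described above as transcribed under E2F factors, so the choice of genes bears on the E2F-type share.

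In 10 members such a match lay wholly within the 100 bases before the gene start. Shown are those bases, 5′ to 3′ on the gene's strand with E2F-type letters in capitals, for the 4 of these genes with the largest difference at 10 min (RFC3, GINS2, TIPIN and DTL) and the 2 with the smallest (POLE and UHRF1). They are chr13:33818049-33818148 (plus strand) for RFC3, chr16:85688955-85689054 (minus) for GINS2, chr15:66356686-66356785 (minus) for TIPIN, chr1:212035648-212035747 (plus) for DTL, chr12:132687343-132687442 (minus) for POLE and chr19:4909401-4909500 (plus) for UHRF1.
RFC3: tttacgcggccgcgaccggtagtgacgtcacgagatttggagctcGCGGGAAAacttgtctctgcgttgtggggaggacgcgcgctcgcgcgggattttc
GINS2: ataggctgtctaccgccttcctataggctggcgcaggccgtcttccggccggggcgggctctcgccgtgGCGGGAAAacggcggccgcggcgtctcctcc
TIPIN: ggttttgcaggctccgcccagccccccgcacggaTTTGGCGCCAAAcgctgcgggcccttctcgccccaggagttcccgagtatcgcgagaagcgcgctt
DTL: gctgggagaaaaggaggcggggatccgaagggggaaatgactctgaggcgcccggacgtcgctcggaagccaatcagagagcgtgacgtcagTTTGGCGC
POLE: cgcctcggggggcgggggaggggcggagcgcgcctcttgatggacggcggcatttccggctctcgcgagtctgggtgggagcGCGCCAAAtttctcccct
UHRF1: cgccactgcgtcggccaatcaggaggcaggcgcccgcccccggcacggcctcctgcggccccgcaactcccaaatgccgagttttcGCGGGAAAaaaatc
TIPIN holds 2 overlapping matches that together read the same on both strands, and the other 5 hold 1 each. The first base of the match lies 55 bases before the gene start in RFC3, 31 in GINS2, 8 in DTL, 18 in POLE and 14 in UHRF1.

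Of the 10 licensing genes 8 fell at 10 min, with a median log2 ratio of -1.34, and ORC6 and MCM5 did not pass the rule. Their summed level was 1263, 515, 1215 and 1417 CPM at 0, 10, 30 and 360 min. MCM4, a helicase subunit, had 198, 61.1, 201 and 229 CPM, 3.23-fold lower at 10 min than at 0 min (interval 2.99 to 3.49). CDC6 (ENSG00000094804; chr17:40287633-40304657, plus strand; gene coordinates are those of GENCODE 29 on GRCh38), the loader of the helicase, had 132, 46.4, 131 and 141 CPM, 2.83-fold lower at 10 min (2.59 to 3.10). In both genes the 10 min library alone was low. ORC1, the largest subunit of the origin recognition complex, had 29.2, 10.3, 28.1 and 40.0 CPM, 2.82-fold lower at 10 min (2.33 to 3.44). ORC1 was highest at 360 min, at 1.37 times its 0 min level, short of the rule. The other 5 that fell, CDT1, MCM2, MCM3, MCM6 and MCM7, were 2.20- to 2.72-fold lower. For MCM7 this depends on the sum used: over its protein-coding transcripts alone the log2 ratio was 0.23.

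MCM5 (ENSG00000100297; chr22:35400063-35425430, plus strand) had 46.2, 43.7, 42.2 and 87.6 CPM in its annotated transcripts, a ratio of 0.946 at 10 min (interval 0.845 to 1.06) and 1.90 at 360 min (1.72 to 2.09). Models that the assembly added to its locus held a further 113, 25.6, 135 and 94.0 CPM. The whole locus had 159, 69.2, 178 and 182 CPM, 2.29-fold lower at 10 min than at 0 min (2.13 to 2.48) and 1.14 times the 0 min level at 360 min. With the assembled models MCM5 thus ran like the other MCM genes, and it was their lone exception without them. ORC6 likewise was at a ratio of 0.565 (0.464 to 0.685) in annotated transcripts and 2.35-fold lower at 10 min for the whole locus.

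All 6 genes of helicase activation fell at 10 min, with a median log2 ratio of -1.63 and summed levels of 189, 61.2, 176 and 237 CPM. GINS4, a subunit of the GINS complex, had 20.1, 4.70, 20.9 and 55.2 CPM, 4.29-fold lower at 10 min (interval 3.27 to 5.70). At 360 min GINS4 rose 2.74-fold (2.39 to 3.15), with the same ratio for its whole locus. Its 360 min counts lay on another model: a transcript of 3873 bases held 0.281, 0.108, 0.814 and 44.4 CPM, and one of 3841 bases held 17.2, 2.93, 15.0 and 4.62 CPM. In GINS4 23.6% of exon bases overlap a gene on the other strand, and whether the counting used strand is not given, so its level is uncertain. MCM10 (ENSG00000065328; chr10:13161554-13211104, plus strand), which helps to start the helicase, had 38.2, 9.71, 35.7 and 46.4 CPM, 3.93-fold lower at 10 min (3.25 to 4.79). GINS2 had 46.1, 13.5, 48.4 and 61.8 CPM, 3.42-fold lower at 10 min (2.91 to 4.05). For MCM10 and GINS2, too, 10 min was the lone low library.

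GINS1 (ENSG00000101003; chr20:25407727-25452628, plus strand) was below its 0 min level in the 30 and 360 min libraries as well as at 10 min. It had 25.4, 11.2, 14.8 and 14.1 CPM, 2.28-fold lower at 10 min (interval 1.88 to 2.77), at a ratio of 0.584 at 30 min (0.489 to 0.695) and 0.556 at 360 min (0.464 to 0.663). Its whole locus had 56.8, 21.2, 21.7 and 19.9 CPM, and fell 2.68-fold at 10 min, 2.61-fold at 30 min (2.29 to 2.99) and 2.85-fold at 360 min (2.48 to 3.28). By the whole locus, GINS1 was the one gene of those with a matched locus that was not lowest at 10 min. CDC45 and GINS3 were 2.47- and 2.81-fold lower at 10 min.

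In the polymerase and primase group 2 of 8 fell at 10 min, POLA2 and POLE2, with a median log2 ratio of -0.92. The group's summed level was 407, 235, 433 and 467 CPM. POLA2, the regulatory subunit of polymerase alpha, had 45.5, 20.2, 46.0 and 51.0 CPM, 2.25-fold lower at 10 min (interval 1.96 to 2.60). POLE2, a subunit of polymerase epsilon, had 8.05, 3.62, 8.41 and 7.23 CPM, 2.23-fold lower (1.59 to 3.17). A leading transcript alone is, here and below, the one with the highest mean count over the 4 libraries. That of POLE2 had 1.93 CPM at 0 min and 3.13 CPM at 10 min, a log2 ratio of 0.69. Both levels are under the 5 CPM of the rule, and another transcript held more of POLE2 at 0 min. The direction of this leading transcript alone thus differed from that of the gene sum. The whole POLE2 locus held no counts in assembled models and was likewise 2.23-fold lower at 10 min. POLA1, the catalytic subunit of polymerase alpha, had 43.1, 22.1, 50.8 and 54.6 CPM, a ratio of 0.512 at 10 min (0.445 to 0.588) and short of the rule. PRIM2, the regulatory subunit of primase, had 17.4, 13.0, 21.1 and 24.9 CPM, a ratio of 0.744 (0.610 to 0.904), nearest to 1 in the group. The others were PRIM1 at 0.546, POLE at 0.541, POLD1 at 0.710 and WDHD1, which links polymerase alpha to the helicase, at 0.513. All 8 ratios were thus below 1 at 10 min, and those of POLA1, PRIM1, POLE and WDHD1 were just short of the 2-fold limit; whether the group differs from the other groups was not tested.

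**Figure D3:**
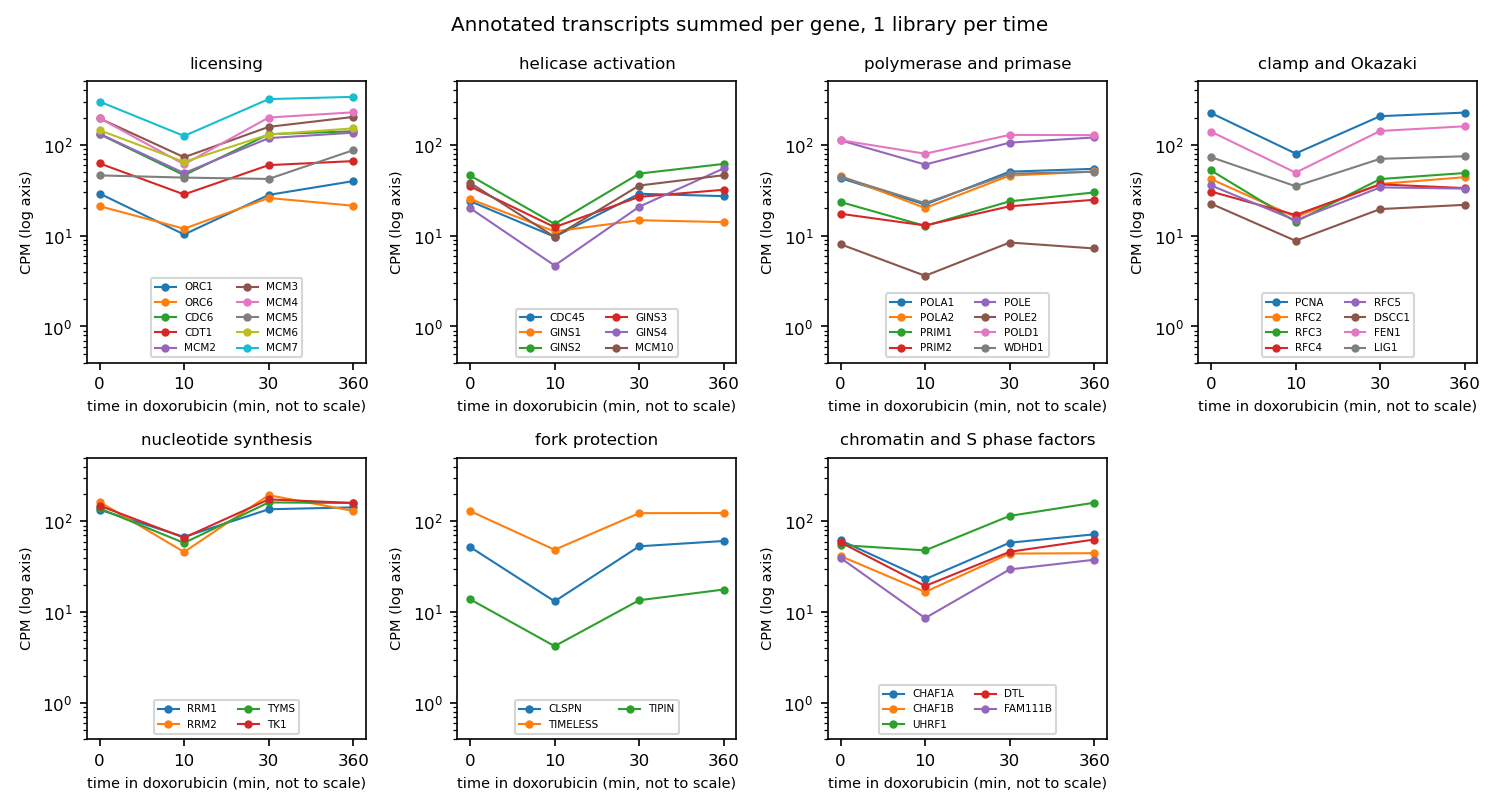
CPM of annotated transcripts on a log axis against time in doxorubicin (0, 10, 30 and 360 min, not to scale), 1 point per library and 1 line per gene, by role group. Lines dip at 10 min in each group, while MCM5 and UHRF1 stay nearly level there.

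Of the 8 clamp and Okazaki fragment genes 7 fell at 10 min, with a median log2 ratio of -1.37 and summed levels of 621, 236, 590.2 and 644 CPM. RFC3, a subunit of the loader that opens the clamp, had 52.3, 14.3, 42.1 and 49.1 CPM, 3.67-fold lower at 10 min (interval 3.13 to 4.31). FEN1, the nuclease that trims Okazaki flaps, had 140.0, 49.5, 143 and 161 CPM, 2.83-fold lower (2.59 to 3.09). PCNA (ENSG00000132646; chr20:5114953-5126626, minus strand), the sliding clamp, had 225, 80.4, 208 and 227 CPM, 2.80-fold lower (2.61 to 3.00). These 3 genes were lowest at 10 min and within 1.25-fold of the 0 min level at 30 and 360 min. At 30 min RFC3 was at a ratio of 0.805 (0.721 to 0.899) and PCNA at 0.923 (0.877 to 0.971). RFC4 had 30.7, 16.9, 36.8 and 33.5 CPM, a ratio of 0.552 at 10 min (0.469 to 0.648), and was the member of this group short of the rule. RFC2, RFC5, DSCC1 of an alternative clamp loader, and LIG1, the ligase of Okazaki fragments, were 2.09- to 2.61-fold lower, although the leading transcript of LIG1 alone had a log2 ratio of 0.06. RFC2 depends on the sum used: its whole locus, with assembled models, was 1.65-fold lower at 10 min and did not pass the rule.

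In the nucleotide synthesis group 3 of 4 fell at 10 min, with a median log2 ratio of -1.22 and summed levels of 587, 238, 668 and 593 CPM. RRM2 (ENSG00000171848; chr2:10120698-10131419, plus strand), the small subunit of ribonucleotide reductase, had 164, 46.1, 195 and 131 CPM, 3.56-fold lower at 10 min (interval 3.26 to 3.89). TYMS (ENSG00000176890; chr18:657604-673578, plus strand), which makes thymidylate, had 139, 58.0, 162 and 160 CPM, 2.40-fold lower (2.21 to 2.60), and 46.6% of its exon bases overlap genes on the other strand. TK1, the thymidine salvage kinase, had 149, 66.2, 175 and 160 CPM, 2.25-fold lower (2.08 to 2.44). RRM1, the large subunit of the reductase, had 135, 67.5, 136 and 143 CPM, and its ratio of 0.5003 (0.462 to 0.541) was just short of the rule. Both subunits were low at 10 min. At 360 min the direction for RRM2 depended on the sum used: the annotated ratio was 0.796, while the whole locus had 244, 62.3, 321 and 444 CPM, 1.82 times its 0 min level at 360 min (1.75 to 1.90). Assembled models held 32.7, 26.1, 39.4 and 70.6% of that locus.

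All 3 fork protection genes fell at 10 min, with a median log2 ratio of -1.72 and summed levels of 196, 66.1, 190.2 and 202 CPM. CLSPN (ENSG00000092853; chr1:35720218-35769967, minus strand), the checkpoint mediator claspin, had 52.3, 13.2, 53.2 and 60.9 CPM, 3.98-fold lower at 10 min (interval 3.38 to 4.70). TIPIN had 13.9, 4.23, 13.5 and 17.8 CPM, 3.29-fold lower (2.44 to 4.48). TIMELESS, its partner at the fork, had 130.2, 48.7, 123 and 124 CPM, 2.67-fold lower. All 3 were within 1.25-fold of the 0 min level at 30 min.

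Of the 5 chromatin and S phase factors 4 fell at 10 min, with a median log2 ratio of -1.42 and summed levels of 257, 116, 294 and 379 CPM. FAM111B (ENSG00000189057; chr11:59107185-59127410, plus strand), a protease-like protein, had 39.6, 8.62, 29.6 and 37.8 CPM, 4.60-fold lower at 10 min (interval 3.77 to 5.65), the largest ratio among the 44. DTL, the substrate receptor of the ligase that removes CDT1, had 58.8, 19.5, 46.3 and 63.2 CPM, 3.02-fold lower (2.63 to 3.48). CHAF1A, the large subunit of chromatin assembly factor 1, had 61.9, 23.1, 58.3 and 72.1 CPM, 2.68-fold lower. FAM111B and DTL were also below the 0 min level at 30 min, by less than the rule asks. CHAF1B was 2.49-fold lower at 10 min.

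UHRF1 (ENSG00000276043; chr19:4903080-4962154, plus strand), which recruits maintenance methylation to newly copied DNA, had 55.0, 48.0, 115 and 161 CPM in annotated transcripts. Its ratio was 0.873 at 10 min (interval 0.786 to 0.969), 2.10 at 30 min (1.92 to 2.29) and 2.93 at 360 min (2.70 to 3.18). The whole locus gave other directions: it had 203, 54.4, 173 and 226 CPM, 3.74-fold lower at 10 min (3.45 to 4.06), and ratios of 0.852 at 30 min and 1.11 at 360 min. Assembled models held 148, 6.39, 57.9 and 65.4 CPM of it. UHRF1 thus rose at 30 and 360 min only when assembled models were left out, and fell at 10 min only when they were counted.

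**Figure D4:**
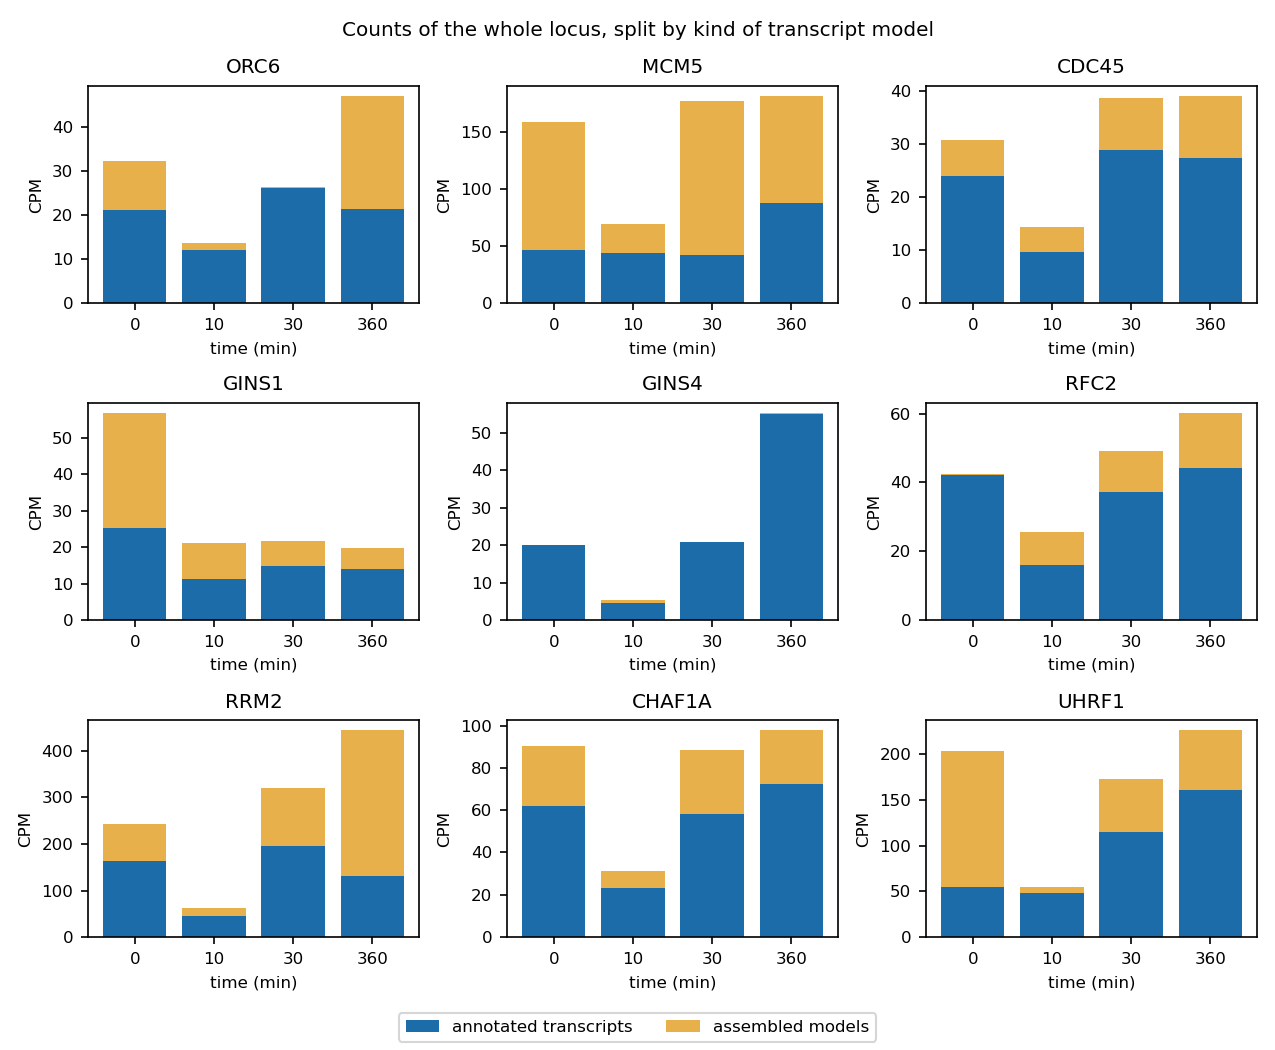
CPM of annotated transcripts and of models added by the assembly, stacked, in each library for members whose assembled models held over 10% of the locus in 1 or more libraries. For UHRF1 the assembled part is 6.39 CPM at 10 min, against 148 CPM at 0 min, while the annotated part is 48.0 CPM at 10 min, against 55.0 CPM at 0 min.

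Assembled models held over 10% of the locus in 1 or more libraries for 9 members, ORC6, MCM5, CDC45, GINS1, GINS4, RFC2, RRM2, CHAF1A and UHRF1. Of these, 6 fell at 10 min by annotated transcripts and 8 by the whole locus. Among the 31 with 10% or less, 24 fell at 10 min, with a median log2 ratio of -1.28, and none passed the rule at 30 or 360 min. By the whole locus, 32 of 40 members with a matched locus fell at 10 min, against 4.70% of 12166 loci, and none rose, against 6.20%. At 30 min 1 of 40 fell (GINS1) and none rose, against 1.40% and 1.66% of 11787 loci. At 360 min GINS1 fell and GINS4 rose, against 1.11% and 0.964% of 11719 loci.

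Taken in each library by itself, the leading annotated transcript was the same in all 4 libraries for 26 members and differed for 18. In MCM4 the coding model of 4105 bases held 188, 14.8, 45.6 and 213 CPM, and that of 4183 bases held 3.50, 42.8, 147 and 5.91 CPM, while the gene's sum was low at 10 min alone. In MCM7 a retained-intron model of 2900 bases held 194, 3.40, 159 and 172 CPM, and the coding model of 2957 bases held 94.0, 112, 149 and 156 CPM. The fall of MCM7 at 10 min thus lies in the retained-intron model, and over its protein-coding transcripts the log2 ratio was 0.23. In RRM1 the model of 3076 bases held 130, 64.2, 135 and 45.8 CPM, and one of 2075 bases held 56.0 CPM at 360 min and 0 in the other libraries. In MCM10 the model of 3157 bases held 32.6, 0, 29.5 and 23.5 CPM, and that of 4547 bases held 2.53, 9.25, 2.21 and 0.653 CPM. In POLE the coding model of 7840 bases held 89.1, 55.8, 36.7 and 112 CPM, and one of 8011 bases, a substrate of nonsense-mediated decay, held 8.16, 0.432, 65.0 and 0.562 CPM. The 10 min library was thus set apart by model use in MCM7 and MCM10, and the 30 min library in POLE. The division of counts among overlapping models is the authors' estimate, so these shifts are less certain than the gene sums.

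**Figure D5:**
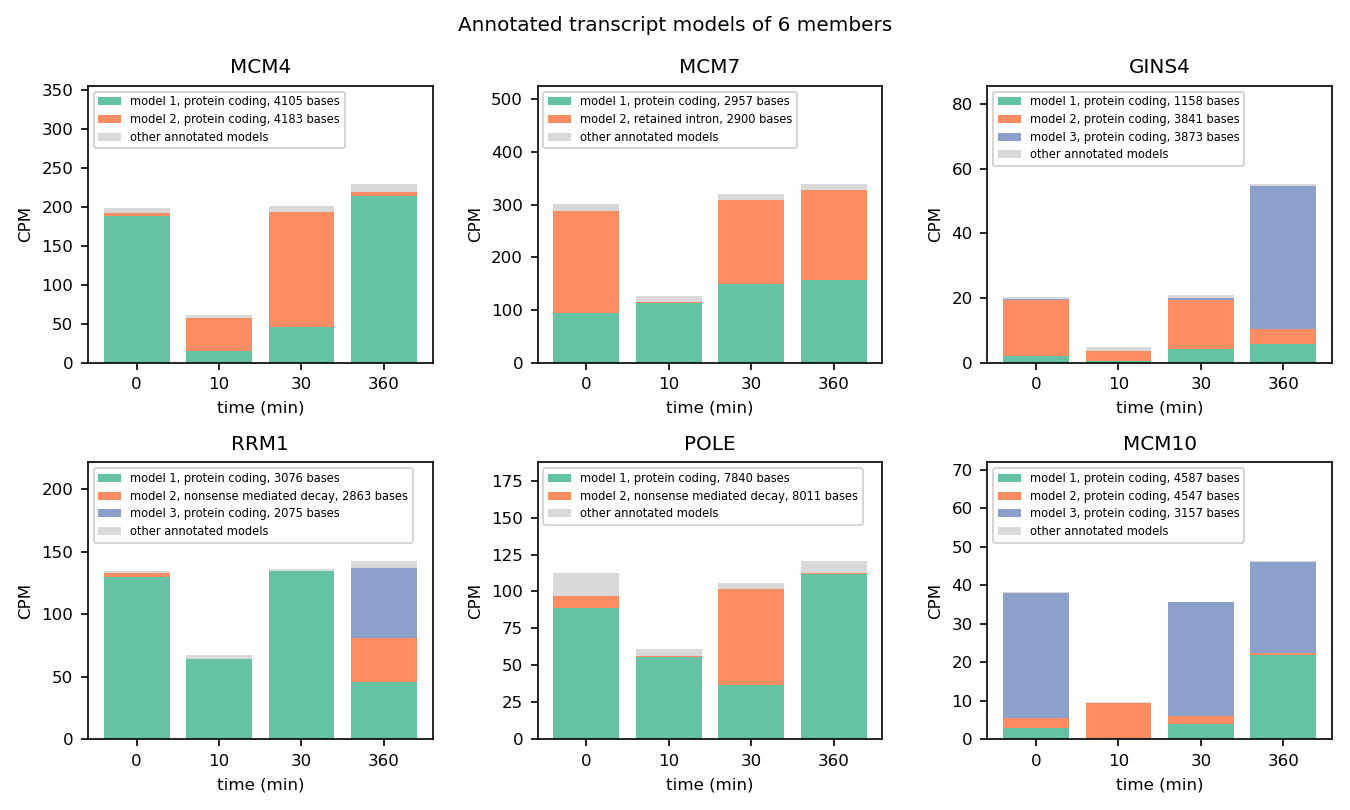
CPM of annotated transcript models, stacked, in the library of each time for 6 members (MCM4, MCM7, GINS4, RRM1, POLE and MCM10); each colour is 1 model and grey the sum of the others. In MCM7 the retained-intron model drops to 3.40 CPM at 10 min while the coding model holds 112 CPM.

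Levels of several members are uncertain because their exons overlap other genes. The share of exon bases overlapped on the other strand was 23.6% in MCM2, 10.9% in GINS3 and 10.6% in RFC5, beside TYMS and GINS4. On the same strand it was 35.1% in POLA2, 21.0% in TIPIN, 20.2% in RRM2 and 16.2% in PRIM1. Pseudogenes named after PCNA and RRM2 summed to at most 1.07 CPM and 0.648 CPM in any library, and those of RFC3, RFC5, FEN1 and TYMS were at 0.

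Levels per length (TPM, from counts divided by transcript length) allow members of 1 complex to be compared. PCNA was highest of the 44, at 383, 140, 350 and 388 TPM. MCM7 was highest of the MCM genes, at 247, 107, 262 and 276 TPM. These levels include its retained-intron model, which held 64.5, 2.71, 49.85 and 50.8% of its counts. At 0 min the MCM7 coding model of 2957 bases held 94.0 CPM, against 155.8 CPM in an MCM3 coding model of 3083 bases. The rank of MCM7 and the MCM spreads below thus depend on which models are summed. Over MCM2 to MCM7 the highest gene was 8.16, 3.12, 7.66 and 3.66 times the lowest, which was MCM5 in all 4 libraries. Without MCM5, whose annotated sum leaves out much of its locus, this spread was 2.88-, 3.07-, 3.31- and 3.13-fold. For RFC2 to RFC5 this spread was 1.42-, 1.91-, 1.73- and 1.61-fold. For GINS1 to GINS4 it was 2.50-, 2.25-, 3.12- and 5.11-fold. It was widest at 360 min, when GINS2 was highest at 54.1 TPM and GINS1 lowest at 10.6 TPM. The annotated sum of GINS1 also leaves out assembled models, which held 55.3, 47.4, 31.8 and 29.2% of its locus, so the GINS spreads are uncertain. Assembled models likewise held 0.706, 37.4, 24.5 and 26.6% of the RFC2 locus, so the RFC spreads are uncertain too.

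Of 58 other replication and nucleotide genes, listed by function, 9 fell at 10 min and none rose, with a median log2 ratio of -0.53 and 51 below their 0 min level. They included CDC7, POLE3, DNA2, RNASEH2A, CHTF18 and ASF1B of 32 replication genes, and DTYMK and NME1 of 26 nucleotide genes; NME1 shares exons with a read-through gene and is uncertain. ASF1B, a histone chaperone, had 64.3, 24.1, 67.0 and 68.8 CPM, 2.66-fold lower at 10 min. POLE3, a histone-fold subunit of polymerase epsilon, had 98.1, 39.2, 89.5 and 107 CPM, 2.50-fold lower. Both genes, like most of the 44, were lowest at 10 min and within 1.25-fold of the 0 min level at 30 and 360 min. CHTF18, of the alternative clamp loader, had 23.8, 6.48, 12.4 and 25.0 CPM, 3.67-fold lower, but the log2 ratio of its whole locus was -0.33. None of the 58 passed the rule at 30 or 360 min, where the medians were 0.07 and 0.10.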

How the data were processed

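Per the labels' protocols, Trizol RNA of trypsinised cells was selected on poly(dT) beads and reverse transcribed (SmartScribe). HISAT2, DESeq2 and GRCh38 are named, without versions, per the submitters' processing notes. Counting tool, annotation release and strand setting were not given in the sources used here. Both tables that the authors deposited hold unscaled estimated counts, per transcript and per assembly locus; they are whole numbers, so rounding changed nothing. Annotated transcripts were summed per gene by GENCODE 29 and divided by the column total to give CPM. Loci carry assembly identifiers, and a locus was matched to a member when subtracting the assembled models left exactly the annotated sum of that gene or of a run of neighbours in which it held at least 95%. Of 44 members 43 lay in a matched locus and 40 passed that limit.

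Of 24294 low values (1 to 24, genes with 1 transcript) 26.1% were multiples of 4, against 25% with even spacing, so these values do not fix what 1 read pair counts for. Counts were divided by 4 for the intervals, the more cautious choice. Ratios have 95% exact intervals (Clopper-Pearson, conditional binomial) that cover counting error only, and a library at 0 entered at a floor of 3 read pairs, or 12 counts. The size rule was tested on simulated data that held counting error alone. Those data had no variation between libraries and no division of counts among models, so they do not show how the rule treats either. With 1 library per time no count test could be run.

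Members and lists were chosen with earlier results of these data known. Values in all libraries are given, in each role group, for the 3 members with the largest log2 ratio in size at 10 min and the 1 with the smallest, for members past the rule at 30 or 360 min, and for up to 4 other replication or nucleotide genes past the rule. A gene that meets the last rule is not reported here. Further values, on models and loci, were chosen after they were seen. Alternatives were TMM factors (edgeR 4.0.16: 0.993, 1.02, 0.990 and 0.996), median-of-ratios factors (DESeq2 1.42.0), other limits, whole loci, leading transcripts, another baseline and, added after the data were seen, protein-coding transcripts and leaving out 9 members. Python 3.11.15, SciPy 1.17.1, pandas 2.3.3 and R 4.3.3 were used.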

Additional observations from a re-analysis of the deposited data

Results flagged for a closer look

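Models added by the assembly, which the sums of annotated transcripts leave out, passed the 2-fold size rule upwards in 1 or more treated libraries at 3 of the 9 members where such models held over 10% of the locus. RRM2 had 16.2, 126 and 313 CPM in them at 10, 30 and 360 min, against 79.5 CPM at 0 min, so the rule was passed upwards at 360 min alone and the 10 min level was lower. ORC6 had 1.76, 0.289 and 25.6 CPM in them at 10, 30 and 360 min, against 11.1 CPM at 0 min, higher at 360 min alone. RFC2 had 9.61, 12.1 and 16.0 CPM in them at 10, 30 and 360 min, against 0.299 CPM at 0 min.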

How the results depend on the processing

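No paired analysis was possible because each time has 1 library, and for the same reason no replicate could be left out. The count of members that fell at 10 min was 33, and 32 to 40 under the alternatives over all members (27 of 35 without the 9 members with over 10% assembled models), and none rose in any. TMM factors, median-of-ratios factors, undivided counts, a 10 CPM minimum and no minimum moved no other count or median past its limits. With whole loci, 0 rose and 1 fell at 30 min, 1 rose and 1 fell at 360 min, and the chromatin and S phase median at 30 min was -0.23. Without the 9 members 0 rose at 30 min and 0 at 360 min, and that median was -0.34. With the leading transcript alone, 2 rose and 4 fell at 30 min and 2 fell at 360 min; medians were -1.53 for licensing at 10 min, -0.23 and 0.36 for fork protection at 30 and 360 min, and, at 360 min, -0.0606 for helicase activation, -0.61 for nucleotide synthesis and 0.35 for polymerase and primase. With protein-coding transcripts, 1 fell at 30 min, and the 360 min medians were -0.13 for nucleotide synthesis and 0.35 for polymerase and primase. With a 1.5-fold limit 1 fell at 30 min and 1 at 360 min. With the median of the other 3 libraries as baseline, the nucleotide synthesis median was -1.37 at 10 min and the chromatin and S phase median 0.35 at 360 min. With the leading transcript, directions reversed for LIG1 (0.0599) and POLE2 (0.69) at 10 min and POLA1 (-7.49) at 30 min. They also reversed for MCM7 (0.23) at 10 min with protein-coding transcripts and UHRF1 (-0.23) at 30 min with the whole locus. These members passed the rule in either setting, and the intervals of their annotated sums left out 1. With the leading transcript MCM4 fell at 30 min (45.6 CPM, against 188 CPM at 0 min) and RRM1 at 360 min (45.8 CPM, against 130 CPM). Their annotated ratios there were 1.015 and 1.06, with intervals that held 1. Members short of the rule in both settings turned direction too, and those named here are examples. With the whole locus RRM2 at 360 min turned to a log2 ratio of 0.87. At 30 min ORC6 turned from a ratio of 1.23 to 0.817 with the whole locus, and RFC2 from 0.884 to 1.16. UHRF1 turned at 10 min, where its leading transcript had 17.1 CPM, against 14.9 CPM at 0 min. By construction each of these settings sums other transcripts, leaves members out or sets another limit or baseline; no other cause was tested. Depth limits POLE2, TIPIN and GINS4 most, whose intervals were widest.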
